A study of Mus musculus with 7 samples.

Results

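Of 10 genes for docosahexaenoic acid and phospholipid supply in photoreceptors, 6 had peaks at which the histone mark H3K18La rose in the mouse retina. It rose between postnatal days 4 and 28 by limma (a linear model with variances shared across peaks, called at an adjusted p under 0.01). Limma called 41 of the 85 peaks of the 10 genes higher, beside 18.9% of all peaks. None of the 16 peaks of the other 4 genes was called by limma. Voom, a variant of limma for read counts, called 4, beside 30.2% of all peaks called higher by voom. The genes held 2 to 23 peaks each, and a gene with more peaks had more chances of a called one. The genes were chosen by name: Elovl2, Elovl4 and Elovl5 (elongases), Fads1 and Fads2 (desaturases), Mfsd2a, Acsl6 and Adipor1 (uptake, activation and retention), and Lpcat1 and Agpat3 (phospholipid acyl transfer). Earlier results of these data were known when they were chosen, so the shares of all peaks are a description and not an independent test. Every peak that the deposited annotation gives to 1 of these symbols was taken, which gave 85 of the 108253 peaks and 10 of the 25400 gene symbols in the table. Each gene had at least 1 promoter peak, 16 in all, a promoter peak being one that lies between -1000 and 500 bases from a transcription start site (TSS). With 1 promoter peak per gene, 5 of the 10 genes were called higher, beside 33.6% of 9956 protein-coding genes, with median changes of 1.61 and 1.34. Of the 41 called peaks Agpat3 held 13, Elovl4 10 and Lpcat1 10, and peaks of 1 gene need not be independent. Lpcat1 had 23 peaks, Agpat3 16, Elovl4 12, Elovl2 11, Elovl5 8, Acsl6 5, Fads2 4, and Adipor1, Fads1 and Mfsd2a 2 each. A peak outside a gene is named after the nearest TSS, so its name does not show which gene it acts on.

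H3K18La, histone H3 carrying a lactyl group on lysine 18, was mapped by CUT&Tag, in which an enzyme tethered to the mark through an antibody releases the DNA around it for sequencing. Retinas of C57Bl/6J mice were taken at postnatal days 4, 10 and 28 (P4, P10 and P28), dissociated with papain and assayed as whole tissue. P4 and P10 had 2 libraries each and P28 had 3, of which replicate 1 alone was labelled batch 2. The study's text speaks of more replicates per age than the libraries of P4 and P10 analysed here. The study's methods speak of biological replicates without tying a library to an animal, so the p-values measure the spread between these libraries, and in whole retina a larger share of marked cells cannot be told apart from more of the mark per cell.

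Docosahexaenoic acid is built from a plant-derived precursor by alternating desaturation and elongation, with a last shortening step in peroxisomes. The retina also takes it up ready-made, as a lysophospholipid or free acid, and links it to coenzyme A before acyltransferases place it in the phospholipids of the rod outer segment discs. Photoreceptors in addition lengthen such acids to very long chains, a step that depends on ELOVL4, and loss of several of these proteins causes photoreceptors to degenerate.

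The sequences just upstream of the starts of 6 of the genes are shown, 4 whose promoter peak rose and 2 whose promoter peak did not pass the test, so that their base content and motifs can be compared. They were read from RefSeq promoter windows of GRCm38.p6, in which 9 of the 10 genes were found, Fads1 not among them, and each stops before the annotated gene start. Capitals mark letters searched for on both strands: the GC box GGGCGG, the CCAAT box CCAAT, the CRX core TAATCC, the NRL half-site TGCTGA, the E-box CACGTG and the SREBP site TCACNCCAC. Adjacent GC boxes can overlap. The first 4 windows belong to promoters called higher at P28 than at P4.
Lpcat1, chr13:73466981-73467196 (+ strand): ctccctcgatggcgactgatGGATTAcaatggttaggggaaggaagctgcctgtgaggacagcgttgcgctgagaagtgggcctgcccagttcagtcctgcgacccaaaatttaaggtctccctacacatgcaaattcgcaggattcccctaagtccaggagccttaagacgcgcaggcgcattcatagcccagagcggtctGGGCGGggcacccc
Adipor1, chr1:134415128-134415377 (+ strand): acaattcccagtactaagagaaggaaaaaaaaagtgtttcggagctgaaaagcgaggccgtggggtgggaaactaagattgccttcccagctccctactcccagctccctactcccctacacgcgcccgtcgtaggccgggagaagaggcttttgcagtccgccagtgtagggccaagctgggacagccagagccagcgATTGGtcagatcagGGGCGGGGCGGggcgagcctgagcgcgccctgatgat
Elovl2, chr13:41220406-41220653 (- strand): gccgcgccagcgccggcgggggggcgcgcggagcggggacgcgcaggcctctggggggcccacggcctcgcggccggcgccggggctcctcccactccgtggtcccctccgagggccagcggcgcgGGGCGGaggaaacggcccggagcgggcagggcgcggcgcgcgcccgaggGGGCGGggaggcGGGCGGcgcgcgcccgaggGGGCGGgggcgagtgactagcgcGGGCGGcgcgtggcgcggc
Elovl4, chr9:83806306-83806555 (- strand): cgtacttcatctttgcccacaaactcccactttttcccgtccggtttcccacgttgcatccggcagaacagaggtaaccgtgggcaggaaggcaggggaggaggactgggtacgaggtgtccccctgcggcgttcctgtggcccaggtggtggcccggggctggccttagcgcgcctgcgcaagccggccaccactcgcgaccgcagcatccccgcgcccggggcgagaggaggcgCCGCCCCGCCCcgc
Elovl5, not called, chr9:77917115-77917363 (+ strand): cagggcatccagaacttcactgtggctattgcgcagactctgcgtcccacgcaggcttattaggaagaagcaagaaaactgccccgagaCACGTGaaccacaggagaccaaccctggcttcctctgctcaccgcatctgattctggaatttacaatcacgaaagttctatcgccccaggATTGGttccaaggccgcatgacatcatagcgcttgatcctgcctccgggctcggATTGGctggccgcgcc
Mfsd2a, not called, chr4:122961189-122961438 (- strand): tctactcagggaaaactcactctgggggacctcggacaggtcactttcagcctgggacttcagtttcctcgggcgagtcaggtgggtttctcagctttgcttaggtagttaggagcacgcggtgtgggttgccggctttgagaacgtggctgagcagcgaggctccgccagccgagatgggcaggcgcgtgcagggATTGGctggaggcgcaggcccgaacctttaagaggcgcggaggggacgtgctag

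In these windows Elovl2 held 5 GC boxes, Adipor1 2, Elovl4 2 and Lpcat1 1, while the windows of Elovl5 and Mfsd2a held none. The genes not printed do not follow this split. The 250-base window of Agpat3, whose 5′-end promoter was called, held no GC box, and that of Fads2, whose promoter was not called, held 1. Unlike the windows printed, that of Agpat3 lies inside the annotated gene and that of Fads2 almost wholly so, so they are not upstream sequences of the same kind. A second window of Elovl2, also almost wholly inside the gene, held none. Each of the 3 windows of Acsl6, some of them inside the gene, held 1 or 2. Elovl5 held 2 CCAAT boxes and 1 E-box, Mfsd2a and Adipor1 1 CCAAT box each, and Lpcat1 1 CRX core, the letters recognised by the photoreceptor factor CRX. Of 32851 RefSeq windows of 250 bases, 32.7% held a GC box, 33.9% a CCAAT box, 6.25% a CRX core, 16.1% an NRL half-site, 6.02% an E-box and 1.05% an SREBP site. The window of Elovl2 consisted of G and C at 87.1% of its bases, the highest of the 6. The letters are a description, and a window without them may still be bound.

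The depth of the libraries limits single peaks. Reads in peaks ran from 199970 (P10 replicate 1) to 8274373 (P28 replicate 2), and the P4 libraries had 358971 and 295383. Levels are RPKM, reads divided by the peak length in kilobases and by a normalized library size, so levels at peaks of different length can be compared. In a peak of 757 bases, the median width, 3 reads equal 1.80 and 2.36 RPKM in the P4 libraries, 7.15 and 3.12 at P10, and 1.04, 0.244 and 0.684 at P28. Changes are differences of log2(RPKM + 1), which understate the change at low levels, and peaks were called where the p of limma's moderated test, Benjamini-Hochberg adjusted over all 108253 peaks, was under 0.01. The median of all peaks changed by 0.68 from P4 to P28, and this became -0.29 when libraries were scaled to their reads in peaks, 0.16 after median centring and 0.09 after quantile normalization. The calls over all peaks were 20488 higher and 4553 lower as deposited, 7902 and 16845 after scaling to reads in peaks, 14172 and 10724 after median centring, and 13683 and 14636 after quantile normalization.

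Marker genes changed as well. The rod list had a promoter peak for 11 of 12 genes, and all 11 were called higher at P28 and at P10 than at P4, beside 33.6% and 12.0% of all protein-coding genes with a promoter peak. Their summed promoter level was 25.9 to 32.3 RPKM at P4, 231 to 249 at P10 and 171 to 251 at P28. Of the Mueller glia list 2 of 8 promoter peaks were called higher at P28 (17.0 to 18.1 RPKM summed at P4, 41.8 to 58.5 at P28), of the endothelium list 1 of 6 (12.3 to 16.2, then 23.8 to 35.4) and of the progenitor list 1 of 8 (14.0 to 15.2, then 30.4 to 33.8), each a smaller share than the 33.6% of all genes. Single genes carried much of the last 2 sums, and the median changes of the lists were 0.92, -0.08 and 0.75. In the endothelium list Slc2a1 went from a mean of 2.84 to 20.9 RPKM, Esam and Cldn5 had changes of 1.21 and 0.29, and Cdh5, Abcb1a and Kdr of -1.40, -0.90 and -0.44. Of the 6 genes, 2 were higher and 2 lower at an unadjusted p under 0.05, and voom called 2 higher and 1 lower. In the progenitor list Hes5 went from 1.28 to 13.7 RPKM, and the other 7 changes, none of them called by limma, ran from -1.06 at Sfrp2 to 1.53 at Fgf15. Of the 8 genes, 3 were higher and none lower at an unadjusted p under 0.05 by limma, and by voom 3 were higher and 2 lower, with 2 called higher. Of the retinal pigment epithelium list, 4 of 10 genes had a promoter peak, none was called by limma at P28 against P4 or had an unadjusted p under 0.05, voom called 2, and their sum was 7.93 to 12.7 RPKM at P4 and 11.1 to 27.5 at P28. The defining genes Rpe65 and Lrat of that tissue had no promoter peak. The part of these cell types in the results that follow was not tested.

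From P4 to P28, 41 of the 85 peaks were called higher and none lower, against 18.9% of all peaks called higher. The called peaks belonged to 6 genes: 13 of the 16 peaks of Agpat3, 10 of 12 of Elovl4, 10 of 23 of Lpcat1, 4 of 11 of Elovl2, 2 of 5 of Acsl6 and both of Adipor1. None of the 16 peaks of Elovl5, Fads1, Fads2 and Mfsd2a was called by limma, 7 of them had an unadjusted p under 0.05, beside 51.8% of all peaks, and voom on the recovered reads called 4, beside 30.2% of all peaks called higher by voom. The 85 changes had a median of 1.76, beside 0.68 over all peaks, and 79 were above 0, beside 66.5% of all peaks. All 3 P28 libraries lay above both P4 libraries at 70 of the 85 peaks, beside 50.6% of all peaks. Scaled to reads in peaks, 21 were called higher and 1 lower, with 60 changes above 0, beside 7.30% of all peaks called higher and 15.6% lower. After quantile normalization 28 were called higher and 2 lower, with 67 changes above 0, beside 12.6% and 13.5% of all peaks. Without P4 replicate 1 or 2 the calls fell to 25 or 22, beside 5.21% or 5.86% of all peaks called higher, and without P28 replicate 2 or 3 to 26 each, beside 8.32% or 8.45%, all of them higher. Of the 62 peaks with at least 4 reads over both P4 libraries, 31 were called, beside 17.4% of all peaks with that many reads, and the other 23 rested on 3 reads or fewer at P4. At the promoter peaks, 15 of 16 had all P28 libraries above both P4 libraries, beside 73.8% of all promoter peaks. By position, 10 of the 16 promoter peaks were called, beside 31.3% of all promoter peaks, and 31 of the 69 others, beside 16.6% of all non-promoter peaks, with median changes of 1.69 and 1.79 beside 1.26 and 0.54 over all peaks of those kinds. The others called were 21 of 39 in introns (19.5% of all intronic peaks), 5 of 21 between genes (11.8%), 2 of 5 in exons (19.0%), 1 of 2 in 3′ UTRs (21.7%) and both in 5′ UTRs (25.4%).

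**Figure D1:**
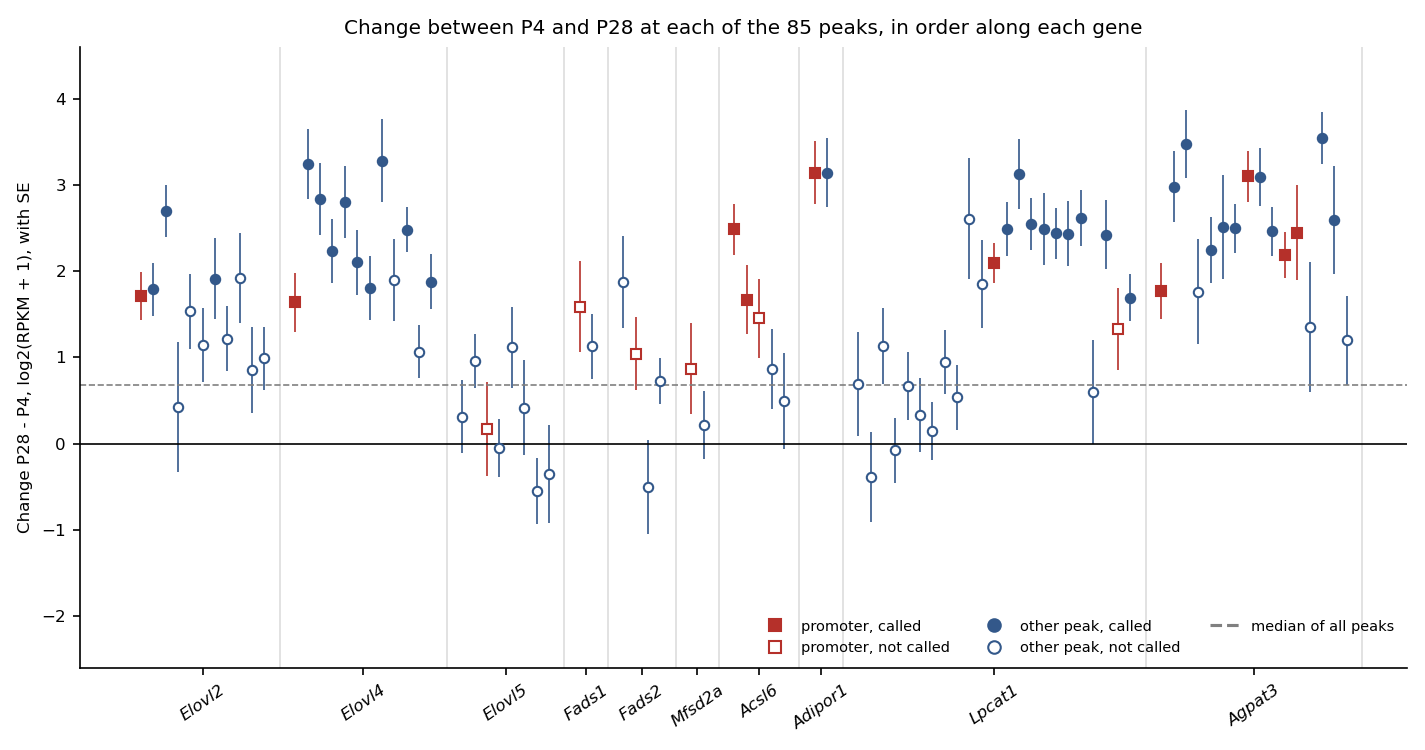
Difference between P28 and P4 in log2(RPKM + 1) at each of the 85 peaks, with its standard error, ordered along each gene from 5′ to 3′. Squares are promoter peaks, filled symbols passed an adjusted p of 0.01 in limma, and the dashed line is the median of all peaks, 0.68. Filled symbols lie at Elovl2, Elovl4, Acsl6, Adipor1, Lpcat1 and Agpat3, and Elovl5, Fads1, Fads2 and Mfsd2a have none.

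Among the elongases, the promoters of Elovl2 and Elovl4 rose by 1.71 and 1.64 from P4 to P28, and that of Elovl5 did not pass the test. Elovl2 (ENSMUSG00000021364) makes the long intermediates from which docosahexaenoic acid is cut. Its promoter peak at chr13:41219938-41220879 held 3.86 and 3.80 RPKM at P4, 11.5 and 16.7 at P10 and 13.6, 14.5 and 16.5 at P28. Both P10 libraries and all P28 libraries were above the P4 libraries, and P10 and P28 overlapped. The change was 1.71 ± 0.28 (SE) from P4 to P28 (limma, adjusted p = 0.00131) and 1.62 ± 0.31 from P4 to P10 (adjusted p = 0.00385). The first call was lost without P4 replicate 1 (adjusted p = 0.0148) or 2 (0.0152), or P28 replicate 2 (0.010). After scaling to reads in peaks the change was 0.36 (adjusted p = 0.172). Counting these, the call at P28 was lost in 5 of 17 alternatives.

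Elovl4 (ENSMUSG00000032262), the enzyme of very long chain polyunsaturated acids, had its promoter peak at chr9:83805172-83806860. It held 4.30 and 3.18 RPKM at P4, 4.28 and 8.40 at P10 and 11.5, 14.4 and 15.3 at P28. The P28 libraries were above all others, while 1 P10 library fell between the P4 values. The change from P4 to P28 was 1.64 ± 0.34 (limma, adjusted p = 0.00426), and that to P10 was 0.58 ± 0.37 and did not pass (adjusted p = 0.262). The P28 call was lost when any P4 or P28 library was left out, with adjusted p from 0.0129 to 0.0475, and the change was 0.29 after scaling to reads in peaks (adjusted p = 0.380). Counting these, the call was lost in 10 of 17 alternatives.

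Elovl5 (ENSMUSG00000032349), which acts on shorter acids than Elovl2, had a weak promoter peak at chr9:77917219-77918181. It held 1.42 and 3.1 RPKM at P4, 0 and 1.64 at P10 and 1.63, 2.81 and 3.41 at P28, from 3 and 5 reads at P4 and 0 and 2 at P10. The 3 ages overlapped. The change was 0.17 ± 0.54 (limma, adjusted p = 0.817), and it turned negative under scaling to reads in peaks (-0.96), median centring (-0.35), quantile normalization (-0.59) and without P4 replicate 1 (-0.21). Its strongest peak lay 6.1 kb upstream at chr9:77910325-77911261, with 10.7 and 8.28 RPKM at P4, 9.63 and 19.4 at P10 and 18.5, 19.9 and 19.4 at P28, and the change of 0.96 ± 0.31 did not pass (adjusted p = 0.0334). An intronic peak at chr9:77963606-77964649 changed by -0.55 ± 0.38 as deposited (adjusted p = 0.263), and it was called lower after scaling to reads in peaks (-1.86, adjusted p = 0.00243) and quantile normalization (-1.93, adjusted p = 0.00200). Of the 8 Elovl5 peaks, 1 was called higher without P10 replicate 1 or 2, with estimated library weights and with voom. These alternatives called 34707, 34795, 37649 and 32691 of all 108253 peaks higher.

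**Figure D2:**
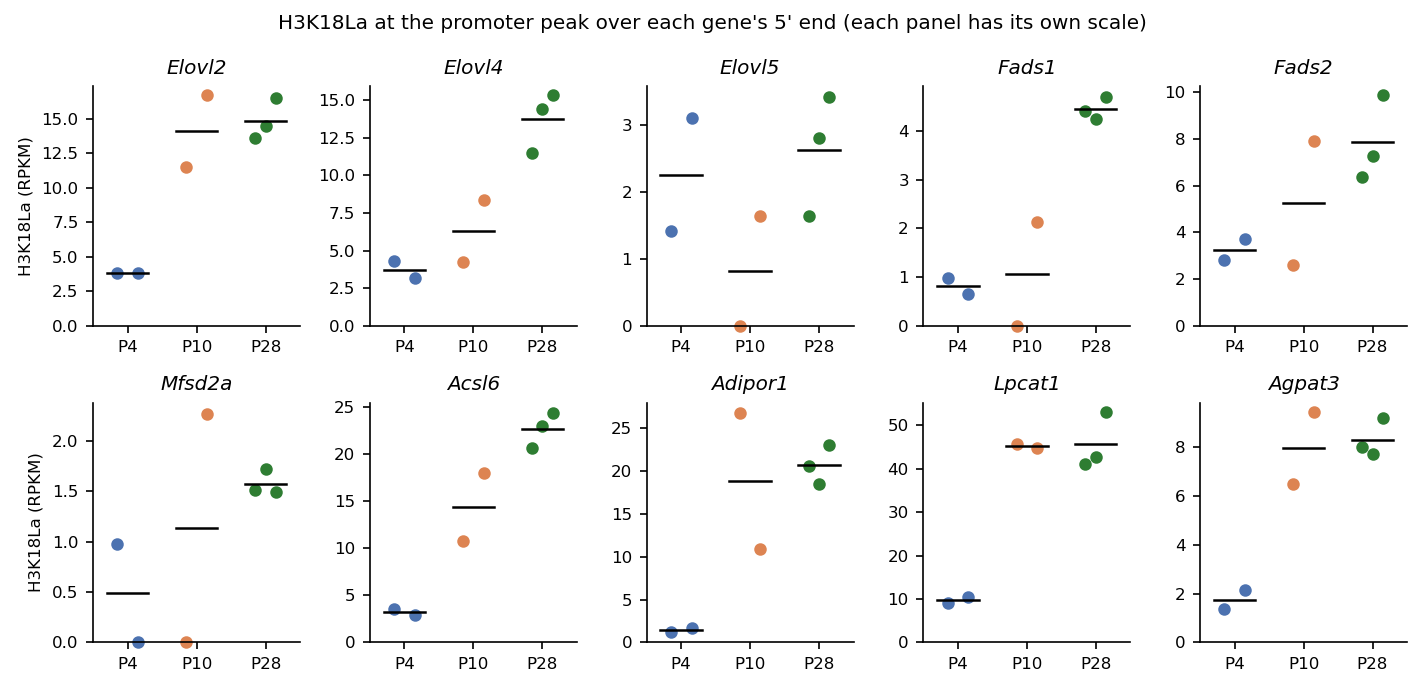
H3K18La in RPKM at the promoter peak over the 5′ end of each of the 10 genes. Points are libraries (2 at P4, 2 at P10, 3 at P28), black lines are means, and each panel has its own linear scale from 0. At Lpcat1 both P10 libraries already lie among the P28 libraries, whereas at Elovl4 and Fads1 the P28 libraries lie above all others.

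The strongest signal of the elongases was not at a promoter. It lay 44.6 kb downstream of the start of Elovl4, beyond the 3′ end of the gene, at chr9:83760804-83761699. This peak held 7.10 and 9.32 RPKM at P4, 70.5 and 87.1 at P10 and 41.3, 50.0 and 60.9 at P28, from 14 and 14 reads in the P4 libraries. Both P10 libraries were above all P28 libraries, and all 5 were above P4. The change was 3.12 ± 0.29 to P10 (limma, adjusted p = 0.000381) and 2.48 ± 0.26 to P28 (adjusted p = 0.000200). The difference between P28 and P10, -0.64 ± 0.26, did not pass (adjusted p = 0.125). The nearest protein-coding genes were Elovl4, whose 3′ end was 17.0 kb away, and Sh3bgrl2 on the other side, 122.0 kb away. Only this peak and the Lpcat1 promoter reached the 99.9th percentile of all peaks at P28. It had the highest mean level of the 85 peaks at P10 and at P28.

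The other 5 peaks downstream of Elovl4 and the 5 peaks inside it had changes above 0 at P10 and at P28. Of these 11 non-promoter peaks, counting the strongest, 9 were called higher at P28 and 7 at P10. Of all 91109 non-promoter peaks, 15114 were called higher at P28 and 10123 at P10. All 3 P28 and both P10 libraries were above the P4 libraries at each of the 11. Over all non-promoter peaks this held at 42146 for P28 and at 31404 for P10. The largest rises of the gene were at chr9:83770890-83771125 (change 3.28 ± 0.48, limma, adjusted p = 0.000799) and in an intron at chr9:83803701-83804636 (change 3.24 ± 0.41, adjusted p = 0.000391). The first held 1.93 and 0 RPKM at P4, 7.65 and 6.68 at P10 and 11.1, 14.1 and 24.1 at P28, from 1 and 0 reads at P4, and its call was lost without P4 replicate 2 (adjusted p = 0.0149), after scaling to reads in peaks (0.0143) and with a pseudocount of 0.1 (0.0161). The second held 0.485 and 0 RPKM at P4, 1.93 and 3.37 at P10 and 7.57, 11.7 and 13.1 at P28, from 1 and 0 reads at P4, and was called in all 17 alternatives. Both levels were highest in the P28 libraries.

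Inside Elovl2, 3 of the 10 non-promoter peaks were called higher at P28, beside 16.6% of all non-promoter peaks, and the strongest lay near the start. The intronic peak 3.6 kb from the TSS at chr13:41215867-41216781 held 9.93 and 5.22 RPKM at P4, 25.6 and 33.6 at P10 and 23.8, 26.0 and 33.6 at P28, more than the promoter in each library. It rose by 1.79 ± 0.31 to P28 (limma, adjusted p = 0.00179), and P10 and P28 overlapped. The next peak that rose, at chr13:41211459-41212305, held 2.68 and 2.11 RPKM at P4, 10.7 and 16.8 at P10 and 17.7, 20.3 and 25.7 at P28 and changed by 2.70 ± 0.30 (adjusted p = 0.000260). The order of P10 and P28 differed between the peaks of the gene. The 3′ UTR peak at chr13:41183074-41184006 held 1.46 and 2.56 RPKM at P4, 11.6 and 11.8 at P10 and 3.09, 5.80 and 6.29 at P28, so that both P10 libraries were above all others. It rose from P4 to P10 by 2.10 ± 0.40 (adjusted p = 0.00416), while the change to P28 was 0.99 ± 0.37 (adjusted p = 0.0539). The difference between P28 and P10, -1.11 ± 0.37, did not pass (limma, adjusted p = 0.0710), and P10 rested on 6 and 14 reads. P10 means were above P28 means at 7 of the 11 Elovl2 peaks, beside 36.3% of all peaks.

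**Figure D3:**
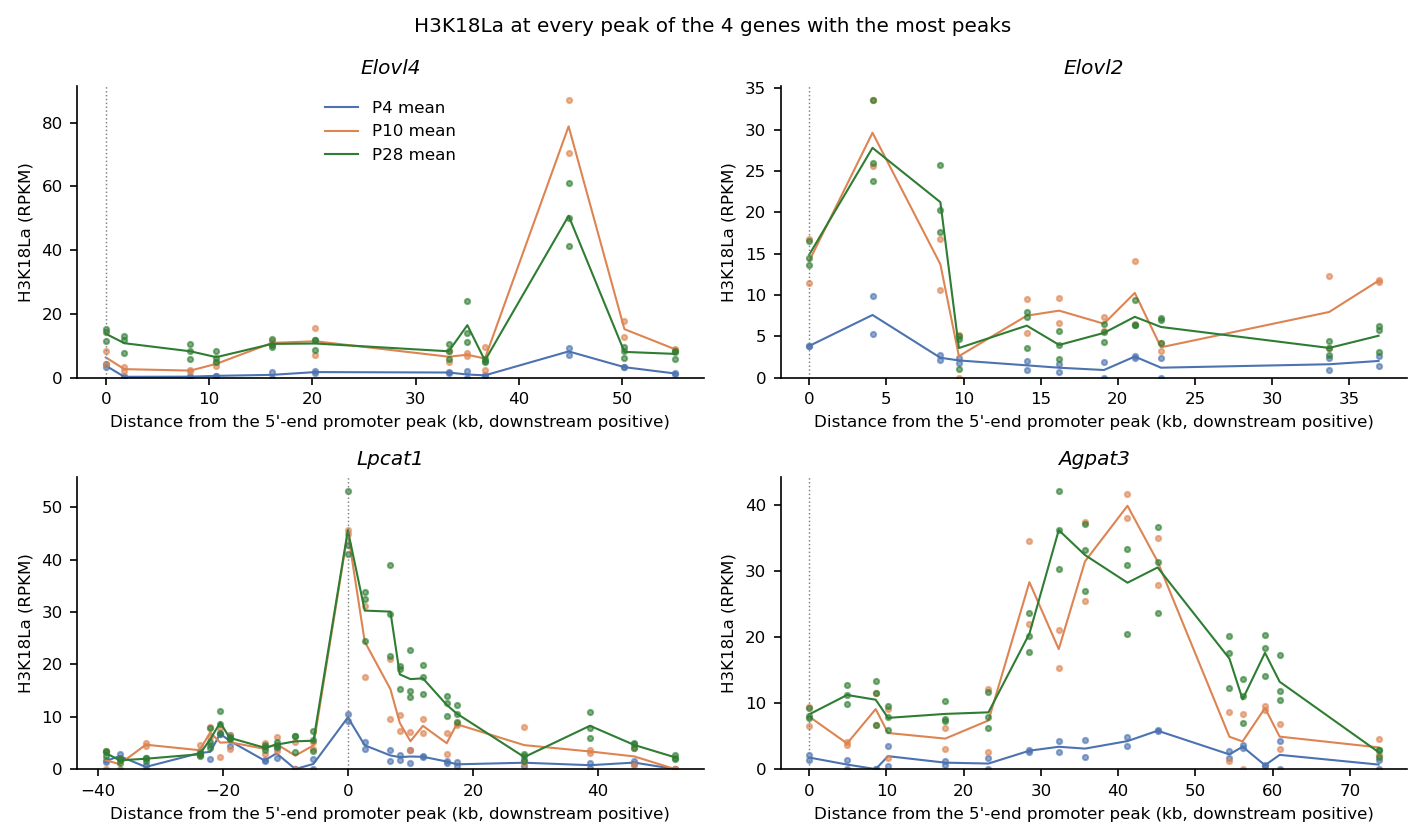
H3K18La in RPKM at every peak of Elovl4, Elovl2, Lpcat1 and Agpat3, plotted by distance in kb from the promoter peak at the 5′ end, with downstream positive. Points are libraries and lines join the mean of each age. The P10 and P28 lines peak 44.8 kb downstream in Elovl4 and at the start in Lpcat1, and upstream of Lpcat1 the lines of the 3 ages cross.

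The desaturases had low signal and no peak called in the main limma fit. Voom called 1 peak of Fads1 and 2 of Fads2, beside 30.2% of all peaks called higher by voom. Estimated library weights called 2 of Fads1 and 1 of Fads2, beside 37649 of all 108253 peaks called higher. Fads2 (ENSMUSG00000024665) carries out the first, rate-limiting desaturation. Its promoter peak at chr19:10100343-10102438 held 2.82 and 3.70 RPKM at P4, 2.58 and 7.90 at P10 and 6.38, 7.27 and 9.89 at P28. The P28 libraries were above the P4 libraries, and P10 overlapped both. The change was 1.04 ± 0.42 (limma, adjusted p = 0.0703), and it was -0.25 after scaling to reads in peaks and -0.04 after quantile normalization. With voom on the recovered reads it passed the threshold (adjusted p = 0.00937).

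Fads1 (ENSMUSG00000010663), the second desaturase of the pathway, had a promoter peak at chr19:10182500-10184342 with 0.986 and 0.648 RPKM at P4, 0 and 2.14 at P10 and 4.41, 4.24 and 4.69 at P28. The P28 libraries were close together and above every P4 and P10 library, but P4 rested on 4 and 2 reads. The change was 1.59 ± 0.53 (limma, adjusted p = 0.0355). It was called without P10 replicate 1 (adjusted p = 0.00172) or 2 (0.00204), with estimated library weights (0.00307) and with voom (0.000566). A peak 27.2 kb upstream of Fads2, at chr19:10128990-10130557, held 0 and 1.52 RPKM at P4, 0 and 1.01 at P10 and 5.35, 4.31 and 4.85 at P28 and changed by 1.87 ± 0.53 (adjusted p = 0.0191).

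Of the genes of uptake and activation, Acsl6 and Adipor1 rose and Mfsd2a did not pass the test. Mfsd2a (ENSMUSG00000028655) carries lysophosphatidylcholine with docosahexaenoic acid through the endothelium. Its promoter peak at chr4:122960029-122961419 held 0.980 and 0 RPKM at P4, 0 and 2.27 at P10 and 1.51, 1.72 and 1.49 at P28, the lowest P28 level of the 10 promoters. The change was 0.87 ± 0.53 (limma, adjusted p = 0.205), on 3 and 0 reads at P4 and 0 and 4 at P10. The peak also overlaps 4933421A08Rik, and CUT&Tag does not give the strand. Its intronic peak held 3.78 and 2.48 RPKM at P4, 3.75 and 8.19 at P10 and 3.27, 4.47 and 3.59 at P28, and the 3 ages overlapped.

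Acsl6 (ENSMUSG00000020333), the ligase that prefers docosahexaenoic acid, had 3 promoter peaks, the others 7.7 and 9.7 kb into the gene. The one at the 5′ end, at chr11:54303937-54306615, held 3.56 and 2.90 RPKM at P4, 10.8 and 17.9 at P10 and 20.6, 23.0 and 24.4 at P28. All P28 libraries were above both P10 libraries, which were above both P4 libraries. The change was 2.48 ± 0.29 to P28 (limma, adjusted p = 0.000304) and 1.83 ± 0.32 to P10 (adjusted p = 0.00288), and the P28 call held in all 17 alternatives, with a change of 1.15 after scaling to reads in peaks. The mean level as deposited rose 7.01 times. The second promoter peak, at chr11:54311924-54313956, held 2.23 and 1.47 RPKM at P4, 2.66 and 6.20 at P10 and 5.94, 9.25 and 9.26 at P28 and changed by 1.67 ± 0.40 (adjusted p = 0.00873), a call lost whenever a P4 or P28 library was left out (adjusted p 0.0174 to 0.0788) and in 6 of the other alternatives, with a change of 0.48 after scaling to reads in peaks (adjusted p = 0.265). The third, at chr11:54314798-54315167, held 7.37 and 1.61 RPKM at P4, 4.88 and 4.26 at P10 and 9.93, 11.8 and 14.0 at P28 with a change of 1.45 ± 0.45 that did not pass (adjusted p = 0.0279). Without P4 replicate 1 it was 2.29 and passed (adjusted p = 0.00773), without P4 replicate 2 it was 0.61, and with estimated library weights it passed too (adjusted p = 0.00179). Of its libraries, 1 P4 library was above both P10 libraries.

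Adipor1 (ENSMUSG00000026457), a receptor whose loss depletes the retina of docosahexaenoic acid, had the largest promoter change of the 10 genes. The peak at chr1:134414911-134415990 held 1.26 and 1.66 RPKM at P4, 26.7 and 10.9 at P10 and 20.6, 18.5 and 23.0 at P28. P4 had 3 and 3 reads, and the P10 values lay on both sides of the P28 values. The change was 3.14 ± 0.36 to P28 (limma, adjusted p = 0.000286) and 2.89 ± 0.40 to P10 (adjusted p = 0.00117). Without P4 replicate 1 the P28 change was 3.03 (adjusted p = 0.0113), and after scaling to reads in peaks it was 1.96 (adjusted p = 0.00804). The intronic peak at chr1:134420232-134421456 held 0.742 and 0 RPKM at P4, 1.47 and 2.57 at P10 and 9.21, 10.8 and 12.1 at P28 and changed by 3.14 ± 0.40 (adjusted p = 0.000416). There the P28 libraries were above both P10 libraries, and both of these above P4.

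Lpcat1 had the highest promoter level of the set in RPKM at each age. Its peak was 791 bases wide, and the 5′-end promoter peak of Acsl6, 2679 bases wide, held more reads at each age. Lpcat1 (ENSMUSG00000021608) makes phosphatidylcholine, the main phospholipid of the outer segment. The peak over its 5′ end at chr13:73466965-73467755 held 9.19 and 10.6 RPKM at P4, 45.6 and 44.8 at P10 and 41.1, 42.7 and 53.1 at P28. The P10 libraries lay within the range of the P28 libraries, and all 5 were above P4. The change was 2.09 ± 0.24 to P28 (limma, adjusted p = 0.000256) and 2.09 ± 0.26 to P10 (adjusted p = 0.000810), and the mean rose 4.62 times from P4 to P28. The P28 call was lost after scaling to reads in peaks (0.63, adjusted p = 0.0248) and quantile normalization (0.21, adjusted p = 0.280). A second promoter peak, at chr13:73512217-73514037 over a shorter transcript near the 3′ end, held 1.5 and 0.983 RPKM at P4, 3.97 and 0.866 at P10 and 4.03, 5.03 and 4.74 at P28 and did not pass (adjusted p = 0.0464), but was called without P10 replicate 1 (adjusted p = 0.00516) or 2 (0.00386), with estimated library weights (0.00338) and with voom (0.00355).

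The called peaks of Lpcat1 lay in and behind the gene. Of the 9 peaks inside the gene outside promoters, 8 were called higher at P28, beside 16.6% of all non-promoter peaks, with a median change of 2.48. After scaling to reads in peaks 6 were called, beside 7.30% of all peaks, with a median of 1.28. Of the 11 peaks upstream none was called at P28 by limma, beside 11.8% of all peaks between genes called higher, with a median change of 0.67. Of these 11, 4 had an unadjusted p under 0.05, beside 51.8% of all peaks. Voom called 2 of the 11, beside 30.2% of all peaks called higher by voom, and limma called 1 higher at P10, beside 11.4%. Their median change was -0.60 after scaling to reads in peaks and -0.36 after quantile normalization, and under the second the peak at chr13:73446594-73447396 was called lower at P28 (-1.32, adjusted p = 0.00891). The intronic peak next to the start, at chr13:73469115-73470964, held 3.93 and 5.16 RPKM at P4, 17.6 and 31.1 at P10 and 24.4, 32.6 and 33.9 at P28 and changed by 2.49 ± 0.31 (adjusted p = 0.000369). The one at chr13:73473951-73474326 held 3.63 and 1.59 RPKM at P4, 9.60 and 21.0 at P10 and 21.6, 29.6 and 39.0 at P28 and changed by 3.13 ± 0.40 (adjusted p = 0.000442). The upstream peak at chr13:73448061-73448894 held 4.36 and 6.44 RPKM at P4, 6.49 and 3.78 at P10 and 5.98, 5.75 and 6.21 at P28, and its change was 0.14 ± 0.34 (adjusted p = 0.745). The difference between the flank and the gene was not tested. A peak past the 3′ end, at chr13:73519287-73520074, had 0 reads in all P4 and P10 libraries and 2.66, 2.11 and 1.97 RPKM at P28 (8, 27 and 9 reads).

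Agpat3 (ENSMUSG00000001211), the acyltransferase that places docosahexaenoic acid in phosphatidic acid, had 13 of 16 peaks called, beside 10 of 12 at Elovl4. Its highest levels lay in the middle of the gene and not at its 5′ end. The 5′-end promoter peak at chr10:78351915-78353590 held 1.36 and 2.14 RPKM at P4, 6.46 and 9.41 at P10 and 7.98, 7.70 and 9.17 at P28 and changed by 1.77 ± 0.32 (limma, adjusted p = 0.00233), a call lost when any P4 or P28 library was left out (adjusted p 0.0105 to 0.0213), with a replicate block (0.0103), after scaling to reads in peaks (0.59, adjusted p = 0.110) and after quantile normalization (1.06, adjusted p = 0.0198). It also overlaps Gm40709, a non-coding transcript that starts at the same promoter. The internal promoter peak at chr10:78306435-78308828 held 5.88 and 5.73 RPKM at P4, 27.9 and 34.9 at P10 and 23.6, 31.4 and 36.6 at P28, so that P10 and P28 overlapped above P4, and changed by 2.19 ± 0.27 (adjusted p = 0.000361), which became 0.77 after scaling to reads in peaks (adjusted p = 0.00737) and 0.51 after quantile normalization, where the call was lost (adjusted p = 0.0459). The one at chr10:78320119-78320829 held 2.56 and 4.2 RPKM at P4, 15.2 and 21.1 at P10 and 30.3, 36.2 and 42.0 at P28 and changed by 3.10 ± 0.29 (adjusted p = 0.000146), with the P28 libraries above both P10 libraries and a change of 1.75 after scaling to reads in peaks (adjusted p = 0.000833). The fourth, at chr10:78297582-78299137, overlaps the transcript Gm47992, held 1.75 and 2.68 RPKM at P4, 1.16 and 8.61 at P10 and 12.3, 17.6 and 20.2 at P28 and changed by 2.45 ± 0.55 (adjusted p = 0.00646), a call lost when any P4 or P28 library was left out (adjusted p 0.0224 to 0.0944) and in 4 of the other alternatives, with a change of 1.19 after scaling to reads in peaks (adjusted p = 0.0625).

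Peaks of Agpat3 outside these promoters were called as well. Of its 12 other peaks, 9 were called higher at P28 and 5 at P10, beside 15114 and 10123 of all 91109 non-promoter peaks. At all 12 the P28 libraries were above the P4 libraries, beside 46.3% of all non-promoter peaks. The largest rise among the 85 peaks was at chr10:78292858-78294677, which held 0.499 and 0.656 RPKM at P4, 8.93 and 9.53 at P10 and 14.1, 18.4 and 20.3 at P28, from 2 and 2 reads in the P4 libraries, and changed by 3.55 ± 0.30 (limma, adjusted p = 0.000115). The second largest, at chr10:78344009-78344281, had no read at P4, 6.61 and 11.6 RPKM at P10 (1 and 4 reads) and 6.73, 11.5 and 13.3 at P28, with a change of 3.48 ± 0.39 (adjusted p = 0.000264). The widest of the 85 peaks, at chr10:78315384-78318647, held 1.81 and 4.39 RPKM at P4, 25.4 and 37.4 at P10 and 26.9, 33.1 and 37.1 at P28 and changed by 3.09 ± 0.33 (adjusted p = 0.000225). The centre of the peak with the largest rise is shown.
Agpat3, intronic peak, chr10:78293618-78293917 (+ strand): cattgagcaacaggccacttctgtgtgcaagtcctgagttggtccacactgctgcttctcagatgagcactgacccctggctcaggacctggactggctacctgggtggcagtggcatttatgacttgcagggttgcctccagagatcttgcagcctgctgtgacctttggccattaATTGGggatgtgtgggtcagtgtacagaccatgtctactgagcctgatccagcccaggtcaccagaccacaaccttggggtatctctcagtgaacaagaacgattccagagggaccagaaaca

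It held 1 CCAAT box and none of the other letters searched. CpG pairs were at 0.05 of the number its base content gives, whereas the 6 upstream windows shown above had 0.61 to 1.06. The whole peaks differed likewise. The promoter peaks over the 5′ ends of the 10 genes had CpG ratios from 0.37 (Acsl6) to 0.92 (Elovl2), and the internal promoter peaks of Agpat3, Acsl6 and Lpcat1 from 0.09 to 0.22. The 69 non-promoter peaks had a median of 0.19, near the 0.18 of all such peaks. Of their centres 6 held a CRX core and 18 an NRL half-site, 8.70% and 26.1%, beside 12.3% and 26.0% of all non-promoter centres.

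From P4 to P10, 29 of the 85 peaks were called higher and none lower, beside 11.4% of all peaks. Scaled to reads in peaks, 9 were called higher and 3 lower, beside 4.38% and 16.1% of all peaks, and after quantile normalization 7 and 2, beside 4.08% and 2.64%, the lower ones at Elovl5 and Lpcat1. Without P4 replicate 1 or 2 the calls fell to 7 or 9, beside 2.59% or 2.94% of all peaks called higher, and without P28 replicate 2 to 15, beside 5.06%. Without P10 replicate 2, 22 were called higher and 1, at Agpat3, lower, beside 11.1% and 5.48% of all peaks. Among the 5′-end promoters the difference between P28 and P10 ranged from 0.00 at Lpcat1 to 1.62 at Fads1, and none of it passed the test. At those of Lpcat1, Elovl2, Agpat3 and Adipor1 it was 0.00 ± 0.24, 0.09 ± 0.28, 0.07 ± 0.32 and 0.25 ± 0.36. At Acsl6, Elovl4 and Fads1 it was 0.66 ± 0.29, 1.06 ± 0.34 and 1.62 ± 0.53. None of the 85 peaks was called between P28 and P10 by limma, beside 0.00185% of all peaks, 28 had an unadjusted p under 0.05, beside 32.5% of all peaks, and voom on the recovered reads called 3, beside 8.26%. Without P10 replicate 2 the count between P28 and P10 was 12, beside 15.2% of all peaks. Across the 3 ages limma's F-test called 39 of the 85 peaks, beside 24.6% of all peaks, and the calls fell to 3 or 6 without P4 replicate 1 or 2, beside 3.30% or 2.75% of all peaks. They fell to 25 without P28 replicate 1, beside 11.8%, and to 22 without P28 replicate 2 or 3, beside 9.23% or 10.1%, and were 59 without P10 replicate 2, beside 47.3%. Both P10 libraries were above all other libraries at 7 of the 85 peaks, beside 11.9% of all peaks.

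The order of the promoters changed between P4 and P28. At P28 the 5′-end promoter means were 45.6 ± 6.47 RPKM at Lpcat1 (SD, n = 3), 22.6 ± 1.92 at Acsl6, 20.7 ± 2.27 at Adipor1, 14.9 ± 1.47 at Elovl2, 13.7 ± 2.01 at Elovl4, 8.29 ± 0.780 at Agpat3, 7.85 ± 1.82 at Fads2, 4.44 ± 0.227 at Fads1, 2.62 ± 0.902 at Elovl5 and 1.57 ± 0.130 at Mfsd2a. The libraries of Acsl6 and Adipor1 overlapped, as did those of Elovl2 and Elovl4, of Agpat3 and Fads2, and of Elovl5 and Mfsd2a, and the other neighbours were separate. At P4 Lpcat1 (9.88 ± 0.969, n = 2) was also first, followed by Elovl2 (3.83 ± 0.0409) and Elovl4 (3.74 ± 0.795), but Fads2 (3.26 ± 0.624) stood level with Acsl6 (3.23 ± 0.471), and Elovl5 (2.26 ± 1.19) above Agpat3 (1.75 ± 0.552) and Adipor1 (1.46 ± 0.280). These P4 neighbours overlapped from Elovl2 down to Adipor1.

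With 1 promoter peak per gene, the nearest to a TSS and among several at a TSS the widest, 5 of the 10 genes were called higher at P28 (Acsl6, Adipor1, Agpat3, Elovl2 and Elovl4) and 4 at P10 (the same without Elovl4). Of 9956 protein-coding genes with a promoter peak, 33.6% were called higher at P28 and 12.0% at P10. With the promoter peak at the 5′ end of the gene, Lpcat1 was added at both ages, which gave 6 and 5 genes. The 33.6% and 12.0% belong to the first rule, and no share of all genes was computed for the 5′-end rule. The 10 genes had a median change of 1.61 and the 9956 genes of 1.34. The count at P28 was 2 without P4 replicate 1, 3 without P4 replicate 2 and 3 without P28 replicate 2, beside 9.66%, 10.9% and 13.3% of the 9956 genes. That at P10 was 0 without P4 replicate 1 or 2, beside 3.00% or 3.29%, and 2 without P28 replicate 2, beside 5.14%.

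The wider lipid pathways were described in the same way. Of 97 further genes in 5 lists, 81 had a promoter peak, of which 33 were called higher at P28 and none lower by limma (1 lower at an unadjusted p under 0.05, and 1 by voom). Their median change was 1.39, beside 1.34 over all protein-coding genes, of which 33.6% were called higher. Phospholipid acyl transfer and remodelling had 10 of 22 called higher (median 1.52), peroxisomal oxidation 7 of 13 (1.73), elongation and desaturation 6 of 15 (1.24), activation, uptake and binding 5 of 15 (1.36), and transcription regulators of lipid genes 5 of 16 (1.41). At P10, 11 of the 81 were called higher, beside 12.0% of all protein-coding genes, and 1 lower, the fatty acid transporter gene Slc27a6. It was named after its values were seen, and held 4.54 and 6.56 RPKM at P4, 0 in both P10 libraries and 0.787, 2.03 and 2.07 at P28. The count at P28 was 8 after scaling to reads in peaks, beside 7.89% of the 9956 genes, and 10 and 14 without P4 replicate 1 and 2, beside 9.66% and 10.9%. It was 15 without P28 replicate 2 or 3, beside 13.3% or 13.1%, and 52 and 51 without P10 replicate 1 and 2, beside 55.2% and 55.4%.

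The 5 largest called rises of these lists spanned 2 of them. Agpat1, an acyltransferase of phosphatidic acid synthesis, had 1 read at P4 in all, 0 at P10, and 13.7, 14.3 and 10.2 RPKM at P28, a change of 3.08 ± 0.48 (limma, adjusted p = 0.00102). Srebf1, which encodes a sterol-regulated transcription factor of lipid synthesis, held 1.36 and 0.892 RPKM at P4, 14.2 and 15.3 at P10 and 14.5, 15 and 15.1 at P28 (change 2.91 ± 0.28, adjusted p = 0.000148). Its chaperone gene Scap held 1.38 and 0.605 at P4, 5.49 and 4.0 at P10 and 12.2, 13.6 and 15.4 at P28 (change 2.91 ± 0.33, adjusted p = 0.000272). The acyltransferase genes Lpgat1 and Lpcat2 changed by 2.84 ± 0.45 (adjusted p = 0.00110) and 2.79 ± 0.28 (adjusted p = 0.000168). At Srebf1 both P10 libraries were near the P28 libraries, and at Scap they were below.

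**Figure D4:**
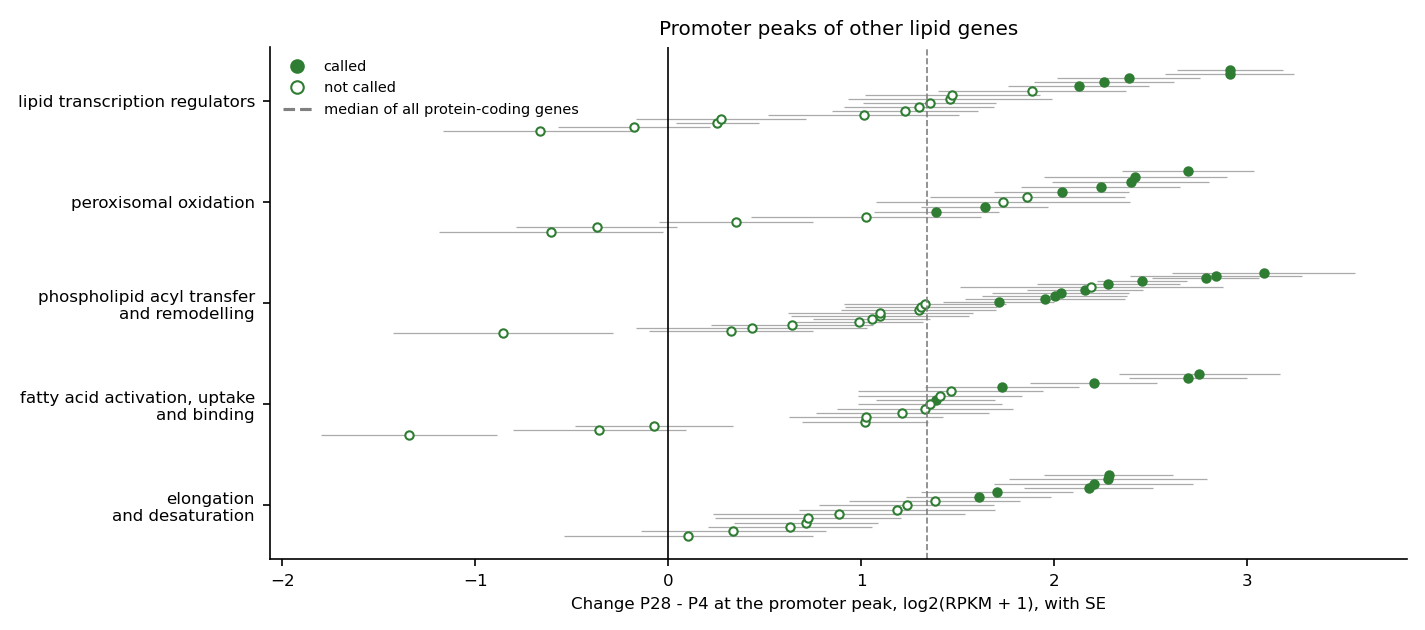
Difference between P28 and P4 in log2(RPKM + 1) at the promoter peak of each of the 81 genes in 5 lipid lists, with standard error. Filled points passed an adjusted p of 0.01 in limma, and the dashed line is the median of 9956 protein-coding genes, 1.34. All filled points lie right of 0, and open points lie on both sides of the dashed line.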

How the data were processed

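H3K18La was profiled with CUT&Tag in mouse retina, in 7 libraries grouped by the age in their labels. The authors mapped the reads to GRCm38, kept MACS peaks found in replicates of an age, merged the peaks of the 3 ages, annotated them with ChIPseeker 1.34.1 and deposited 1 table of RPKM, with library sizes normalized over genomic windows. A peak entered the table when it was called at any age. The authors tested counts with edgeR 3.40.2. As the deposited values are RPKM, limma 3.58.1 in R 4.3.3 was used here on log2(RPKM + 1), with a variance trend, all 7 libraries in 1 fit and Benjamini-Hochberg adjustment over 108253 peaks, and peaks were called under 0.01. Multiplied by peak width, 100.0% of values were whole multiples of 1 read within 0.01 of a read, and the recovered reads (median 1 to 33 per peak and library) entered limma's voom as an alternative. Library scaling, pseudocounts of 0.1 and 4, a filter at 10 reads, library weights, a replicate block and leaving out each library were also tried.

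The genes and lists were chosen with earlier results of these data known. Each gene's promoter peak nearest a TSS was named (the widest among several at a TSS), with the 5 largest rises among other called peaks and the 5 largest called rises of the pathway lists. Other peaks described, and the promoter peak at the 5′ end of a gene, were chosen after their values were seen. The sequence of 1 peak is not reported here.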

Additional observations from a re-analysis of the deposited data

How the results depend on the processing

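The directions of the called promoter changes from P4 to P28 held under every alternative run, and the calls at Acsl6 (5′ end) and at the Agpat3 promoter peak at chr10:78320119-78320829 held in all 17. The counts depended on scaling and on single libraries. Scaled to total reads in peaks, the peaks called were 22 of 85 for P28 against P4 (21 higher, 1 lower) and 12 for P10 against P4 (9 higher, 3 lower). Over all peaks the calls were 7902 higher and 16845 lower at P28, and 4745 higher and 17419 lower at P10. Across ages 20 of the 85 were called, no larger a share than the 25492 of all 108253 peaks. The genes with a called promoter peak were 3 of 10 at P28 and 1 at P10, and the pathway genes 8 of 81. Of the 9956 protein-coding genes, 786 were called higher at P28 and 286 at P10. Quantile normalization gave 9 peaks for P10 against P4 (7 higher, 2 lower) and 25 across ages, 2 genes at P28, 1 gene at P10 and 21 pathway genes. Over all peaks it called 4419 higher and 2862 lower for P10 against P4 and 19960 across ages. Of the 9956 genes it called 1731 higher at P28 and 276 at P10. Estimated library weights gave 14 peaks and 2 genes for P10 against P4 and 52 pathway genes. They called 5348 of all peaks and 465 of the 9956 genes higher at P10, and 5666 of the 9956 genes higher at P28. Without a variance trend, 18 peaks and 2 genes were called for P10 against P4, beside 7821 of all peaks and 651 of the 9956 genes called higher. Voom gave 3 peaks for P28 against P10, 8 genes at P28 and 55 pathway genes (54 higher, 1 lower). It called 8.26% of all peaks for P28 against P10, and 5308 of the 9956 protein-coding genes higher at P28. For P28 against P10, a pseudocount of 0.1 gave 1 peak, a pseudocount of 4 gave 2 and median centring 1. Over all peaks these called 1335, 2812 and 2344. The Elovl5 promoter change was -0.96 after scaling to reads in peaks, -0.35 after median centring, -0.59 after quantile normalization and -0.21 without P4 replicate 1 (0.55 without P4 replicate 2), and that of Fads2 was -0.25 and -0.037 under the first and the third of these. The causes were not tested.

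Leaving out 1 library at a time gave 22 to 55 called peaks for P28 against P4, 7 to 35 for P10 against P4, 0 to 12 for P28 against P10 and 3 to 59 across ages. It gave 2 to 7 genes at P28, 0 to 4 genes at P10 and 10 to 52 pathway genes. Over all 108253 peaks the ranges were, in the same order, 7772 to 42390, 5463 to 20992, 0 to 16507 and 2980 to 51160. Of the 9956 protein-coding genes, 962 to 5514 were called higher at P28 and 299 to 1533 at P10. Replicate numbers did not pair the libraries (correlations across peaks of 0.04, -4e-04 and 0.04 between ages). With a replicate block, 35 peaks were called for P28 against P4, 25 for P10 against P4 and 21 pathway genes. The block called 12306 and 10352 of all 108253 peaks higher, and 1880 of the 9956 genes higher at P28. Without P28 replicate 1, the only library of batch 2, 34 peaks were called for P28 against P4, beside 12493 of all 108253 peaks called higher. The alternative promoter peak at the 5′ end and the restriction by P4 reads or to non-promoter peaks were added after seeing the data. With 23 of 85 peaks at 3 reads or fewer over both P4 libraries, depth at P4 limits single peaks.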
